A study of Danio rerio with 2 samples.

Results

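The fatty acid binding protein genes were examined in whole brain of wild-type male and female zebrafish. Members were all genes of the deposited table whose symbol begins with fabp and a digit, which gave 11 of 27095 genes. These were fabp1a, fabp1b.1, fabp2, fabp3, fabp6, fabp7a, fabp7b, fabp10a, fabp10b, fabp11a and fabp11b. The rule used no measured value. Each sex was represented by 1 RNA sequencing library, for which 5 brains were pooled. The labels give both pools the wild-type genotype and the tissue brain, and name no strain, age or treatment. The comparison asked how expression differs between the brains of the sexes.

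Fatty acid binding proteins are small cytoplasmic proteins that hold a long-chain fatty acid or a related lipid in a barrel-shaped pocket and carry it between membranes, mitochondria, peroxisomes and the nucleus. Members are named for the tissue in which each form was best known: fabp7 in brain, fabp3 in heart, fabp2 in intestine, fabp1 and fabp10 in liver and fabp6 in the ileum. In the brain the fabp7 form is a classical marker of radial glia, the progenitor and support cells that persist in the adult zebrafish brain. Teleost fish kept duplicate copies of several of these genes, written with the letters a and b.

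Read numbers below are the deposited estimated counts rounded to whole reads, given for the male and then the female library. The libraries held 62248792 and 64300988 estimated reads. Values in males or females are those of these libraries. CPM is the usual depth-scaled unit of read counts, taken after both libraries were brought to a common size, and a gene with a mean of at least 1 CPM is called measured, as 14756 genes were. Each ratio is the log2 of the male over the female level; below 0 the female library is higher. Every interval is an exact Clopper-Pearson 95% interval that covers counting error only. There is no spread between replicates with 1 library per sex, so no test was made and no difference has a replicate check. A call required that a gene was measured, differed at least 2-fold between the libraries and had an interval that excludes equal levels. Under that rule 2.70% of measured genes were higher in the female library and 1.06% in the male library, or 399 and 156 genes, and 328 and 203 once the expression trend of the ratios was removed. Genes of other tissues were unequal between the pools: all 7 yolk precursor genes were higher in the female library (median ratio -8.75), and 5 of 12 measured retina and lens genes were higher in the male library (median 0.93). A gene can reach the minimum mean through 1 library alone, so the shares called in such lists depend in part on that filter. Of all genes of the table, 10268 (37.9%) were listed at 0 in both libraries, and on chromosome 7, which holds no member, 1444 of 1511 genes (95.6%) were. A listed 0 may thus stand for a gene that was not counted, and no lack of expression is read from it. Markers of brain glia were present in both libraries: all 17 listed radial glia genes and 10 of 11 oligodendrocyte genes were measured.

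Of the 11 genes, 7 were measured and each of these was above 1 CPM in both libraries. The liver gene fabp10a was the 1 member called higher in the female library, against 2.70% of all measured genes, and no member was called higher in the male library, against 1.06%. At a lower line of 1.5-fold the call was still fabp10a alone, where 6.09% of measured genes were called higher in females and 2.80% in males. All 7 measured members had a ratio below 0, as did 50.3% of all measured genes. The interval lay wholly below 0 for 6 of the 7, against 30.8% of measured genes, and fabp2 was the exception. With the expression trend removed the number was 5, against 30.5% of measured genes, because the interval of fabp10b then also reached past 0. With library totals as the scale it was 7, but the share of all measured genes then also rose, to 39.3%. The ratios of the 6 members not called ran from -0.50 for fabp10b to -0.08 for fabp3, with a median of -0.38 over all 7 against -0.00 over all measured genes. A smaller number of cells of a type and less RNA per cell cannot be told apart in such pooled tissue.

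**Figure D1:**
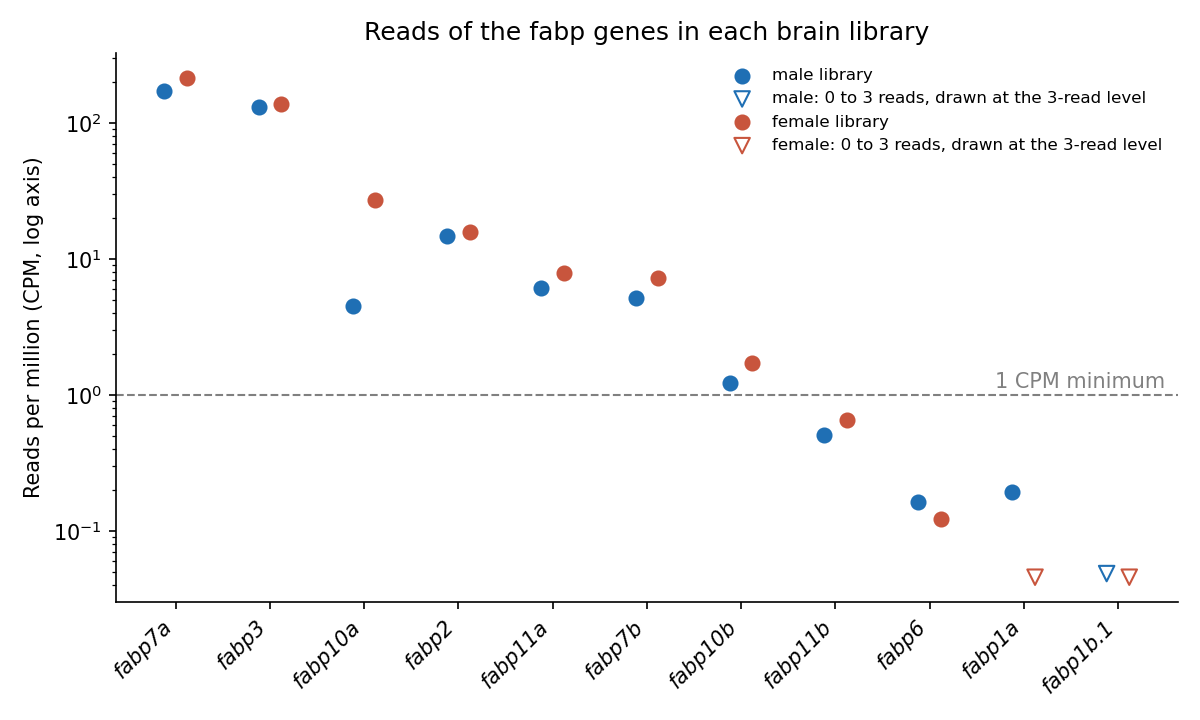
Level in CPM of the 11 fabp genes on a log axis, blue for the male and red for the female library, 1 point per library; open triangles stand at the level of 3 reads for genes with 0 to 3 reads, and the dashed line is the minimum of 1 CPM. The points of each gene lie close together except for fabp10a, at 4.48 CPM in males and 27.0 CPM in females, and the sparsely read fabp1a.

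Added together, the family held 20404 reads in males and 26795 in females, which is 0.0328% and 0.0417% of all reads. The ratio of these sums was -0.30 (interval -0.33 to -0.28). Without fabp10a the sums were 20129 and 25035 reads and the ratio was -0.23 (interval -0.25 to -0.20). Most of the reads belonged to the brain form fabp7a and the heart form fabp3. The share of fabp7a in the family's reads was 51.2% in the male library (interval 50.5% to 51.9%) and 51.9% in the female library (interval 51.3% to 52.5%). That of fabp3 was 39.0% (interval 38.3% to 39.7%) and 33.4% (interval 32.8% to 33.9%). The share of fabp10a was 1.35% (interval 1.19% to 1.52%) in the male and 6.57% (interval 6.27% to 6.87%) in the female library. These are shares of reads and not of transcripts, because no transcript lengths were used. The order of members by mean reads, from fabp7a through fabp3, fabp10a, fabp2, fabp11a, fabp7b, fabp10b, fabp11b, fabp6 and fabp1a to fabp1b.1, carries the same limit. Within it fabp10a and fabp2 were next to each other in the mean but not in each library, since fabp10a was below fabp2 in the male library and above it in the female library. The shares of fabp11a and fabp7b had overlapping intervals in both libraries (1.65% to 2.02% and 1.39% to 1.73% in the male), as had those of fabp6 and fabp1a.

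The fabp7 pair are the brain forms. The gene fabp7a, whose protein binds polyunsaturated fatty acids in radial glia, lies on chromosome 17 from 15274767 to 15277114 on the plus strand of the Zv9 build. It had 10442 reads in males and 13909 in females, or 170 and 213 CPM, and ranked 1260 among all genes of the table by mean reads. The ratio was -0.32 (interval -0.36 to -0.29), a female level 1.25-fold the male level. Of all measured genes 20.3% had a ratio at least as far from 0. The interval is narrow because the gene is deeply read, and the ratio moved to -0.37 with library totals as the scale and to -0.39 with the expression trend removed.

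The duplicate fabp7b, on chromosome 20 from 40400999 to 40402467 on the minus strand, was far more thinly read. It had 317 reads in males and 471 in females, or 5.17 and 7.22 CPM, with a ratio of -0.48 (interval -0.69 to -0.27). Both copies thus had female levels above the male ones by less than 2-fold, and the intervals of their ratios overlapped. Of the reads of the pair, fabp7a took 97.1% in the male library (interval 96.7% to 97.4%) and 96.7% in the female library (interval 96.4% to 97.0%). The division of reads between the copies therefore differed by less than the counting intervals. No source used here tells how reads that match both copies were treated, so the counts of the copies are uncertain to that extent. The same limit applies to the other duplicate pairs below. The gene next to fabp7b on its lower side, the sphingomyelinase-like gene smpdl3a, ended 1774 bases away and had a ratio of -0.40 (interval -0.70 to -0.09). On the upper side pkib began 1160 bases away and was level, at 3530 against 3692 reads (0.02, interval -0.04 to 0.09).

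Most other radial glia markers lay on the same side as the fabp7 pair. None of the 17 measured genes of that list was called, their median ratio was -0.23, and 14 of 17 had a ratio below 0, against 50.3% of all measured genes. The summed level of the list was 3569 CPM in males and 4036 CPM in females. The ratio of fabp7a lay inside the range of the list, with 5 markers lower and 12 higher, and that of fabp7b lay below all 17. With the expression trend removed, 4 markers were lower and 13 higher than either copy. The glutamate transporter gene slc1a2b, with the most reads of the list, stood at -0.21 (interval -0.23 to -0.20). The next was the brain aromatase gene cyp19a1b, at 0.02 (interval -0.00 to 0.04). The intermediate filament gene gfap, the usual glial marker, stood at -0.38 (interval -0.43 to -0.33). For every 1000 reads of the list there were 47.7 reads of fabp7a in the male library (interval 46.8 to 48.6) and 52.8 in the female library (interval 51.9 to 53.7). This proportion does not depend on how the libraries were scaled, and its intervals did not overlap. It does depend on the genes with the most reads: slc1a2b and cyp19a1b held 42034 and 34072 of the list's 218984 male reads. Taken against any of the 5 markers with a lower ratio than fabp7a, it would go the other way. For fabp7b the same proportion was 1.45 (interval 1.29 to 1.62) against 1.79 (interval 1.63 to 1.96), again without overlap. Among oligodendrocyte markers none of 10 measured was called and the median was -0.15, with the myelin genes mpz and mag at -0.17 and -0.03. Of these 10, 8 had a ratio below 0, as had 11 of 12 measured meningeal and mural markers. The same held for 11 of 12 measured microglia and leukocyte markers, so this side was not particular to radial glia. The part that the radial glia markers have in the fabp7 ratios was not tested.

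The heart form fabp3, which in mammals is also the fatty acid binding protein of neurons and muscle, is on chromosome 19 from 44586515 to 44596168 on the plus strand. It had 7957 reads in males and 8939 in females, or 130 and 137 CPM. The 2 libraries were nearly level, with a ratio of -0.08 (interval -0.12 to -0.04), and 67.1% of measured genes had a ratio at least as far from 0. Muscle and heart markers did not share 1 direction. Among 16 measured, 3 were higher in the male library, the calcium pump gene atp2a1 (1.86, interval 1.76 to 1.96), the troponin gene tnni2a.1 (1.63, interval 1.49 to 1.76) and the actin gene acta1b (1.37, interval 1.14 to 1.61). On the female side 2 were called, led by the parvalbumin gene pvalb1 (-3.20, interval -3.43 to -2.99). The creatine kinase genes with the most reads of the list, ckmb and ckma, were at 0.07 and 0.03. The list's median was 0.05 and its summed level was 536 CPM in males and 475 CPM in females. Against 1000 reads of the list, fabp3 had 242 reads in the male (interval 236 to 248) and 288 in the female library (interval 282 to 295). This proportion depends on the make-up of the list. Its reads include atp2a1 at 3653 against 1069 and tnni2a.1 at 1698 against 585, with pvalb1 the other way at 189 against 1857.

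**Figure D2:**
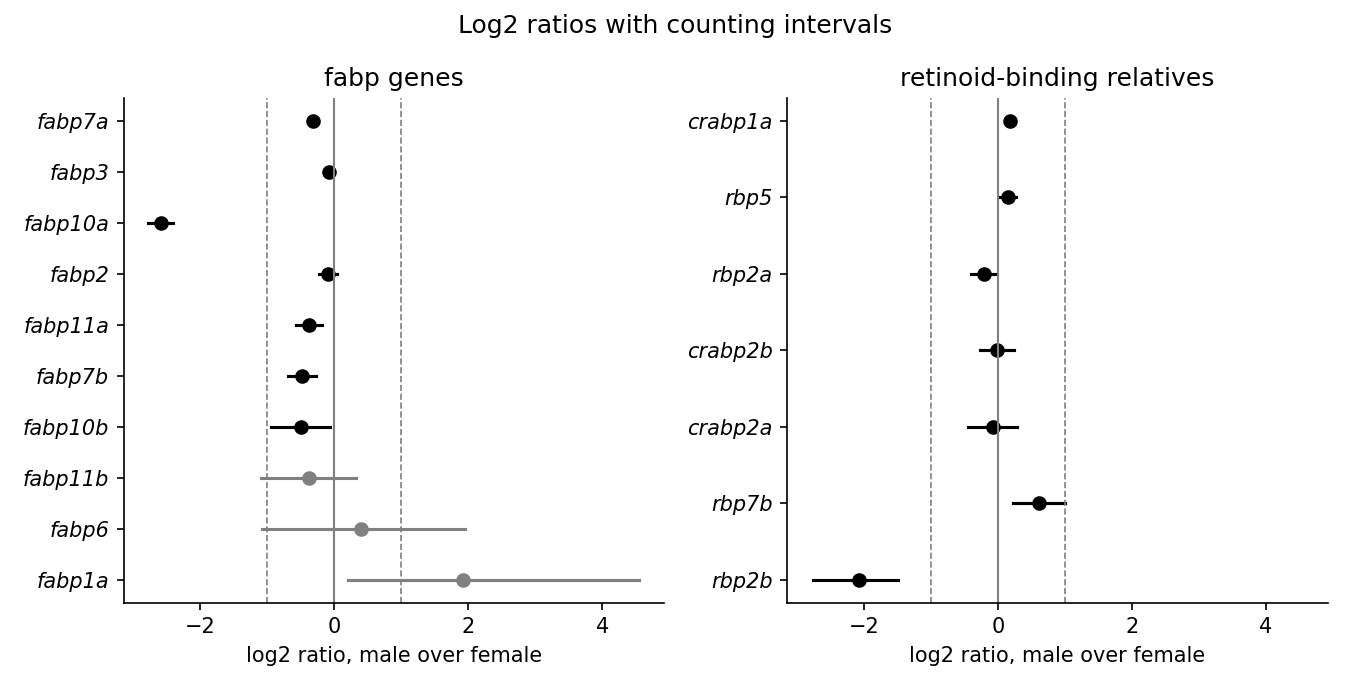
Log2 ratios of male over female for 10 fabp genes (left) and 7 measured retinoid-binding relatives (right), with points for the ratio, lines for the 95% counting interval, grey for genes under 1 CPM and dashed lines at 2-fold; fabp1b.1, with 1 read in all, is not drawn. On the left fabp10a at -2.59 is the 1 measured gene outside the dashed lines, and on the right rbp2b at -2.08 is outside them.

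Of the measured members fabp10a differed most. Its protein, the liver basic type found in fish, birds and other vertebrates outside the mammals, binds bile acids and fatty acids in hepatocytes. The gene is on chromosome 16 from 56117782 to 56122680 on the plus strand. It had 275 reads in males and 1760 in females, or 4.48 and 27.0 CPM. The female level was 6.01-fold the male level (interval 5.30 to 6.86), and 0.962% of measured genes had a ratio at least as far from 0. The ratio of -2.59 ran from -2.63 to -2.52 over the other scales, the added count and the removal of the expression trend. The nearest gene on its upper side, LOC564283, now named srsf10a and encoding a splicing factor, began 3635 bases away. It stood at 11072 against 10418 reads, with a ratio of 0.18 (interval 0.14 to 0.22).

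Its duplicate fabp10b is on chromosome 17 from 53937138 to 53939016 on the plus strand. It had 75 reads in males and 113 in females, or 1.22 and 1.73 CPM, and a ratio of -0.50 (interval -0.94 to -0.07). The wide interval reflects the few reads, and with the expression trend removed the ratio was -0.30. The copies therefore differed in size of ratio, and their intervals did not overlap. The share of fabp10a in the reads of the pair was 78.6% in the male library (interval 73.9% to 82.8%) and 94.0% in the female library (interval 92.8% to 95%).

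Markers of hepatocytes moved in the direction of fabp10a. Of 29 listed, 27 were in the table and 23 measured, and 19 of these were higher in the female library and none in the male library. Some of the 19 were above 1 CPM in the female library only. The median ratio was -2.89, and the summed level of the list was 407 CPM in males and 902 CPM in females. The calls with intervals farthest from 0 were for apobb.1, an apolipoprotein B gene (205 against 4664 reads, -4.42, interval -4.63 to -4.22), c9, a terminal complement gene (-3.84, interval -4.18 to -3.52), tfa, the transferrin gene (-3.59, interval -3.73 to -3.46), and fgg, a fibrinogen chain gene (-3.69, interval -4.02 to -3.39). The markers f2, on chromosome 7, and hp were listed at 0 in both libraries. The markers with the most reads were not called: cp, the ceruloplasmin gene, stood at -0.34 and rbp4, the plasma retinol carrier gene, at 0.03. The ratio of fabp10a had 14 of the 23 markers below it and 9 above it, and that of fabp10b had 20 below and 3 above. For every 1000 reads of the list there were 11.0 reads of fabp10a in the male library (interval 9.74 to 12.4) and 29.9 in the female library (interval 28.5 to 31.4). For fabp10b the proportion went the other way, 3.00 (interval 2.36 to 3.77) against 1.92 (interval 1.58 to 2.31). These proportions depend on the make-up of the list. The uncalled cp, rbp4 and serpinc1 held 10069, 6082 and 3621 of its 24973 male reads. Of its 58842 female reads they held 13554, 6329 and 3507, a smaller part. The proportion of fabp10a thus does not show a rise against the called markers, whose ratios lay on both sides of its own. Germ cell genes moved in the same direction, with 8 of 10 measured oocyte markers higher in the female library. Most of the 8, zp3 among them at 0.473 against 19.8 CPM, were above 1 CPM in the female library only. That count therefore depends in part on the minimum level. The oocyte marker dazl, under that level, had 51 against 46 reads (0.24, interval -0.37 to 0.84). The list's sum was 21.4 CPM in males and 115 CPM in females, and the egg-coat genes zp3, zp2.2, zp3a.1 and zp3a.2 led it, from -7.10 for zp3a.1 to -5.29 for zp3a.2. The egg-coat gene zp3b, with the most reads, was not called (-0.67). What part liver or ovary RNA has in the fabp10a ratio was not tested.

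**Figure D3:**
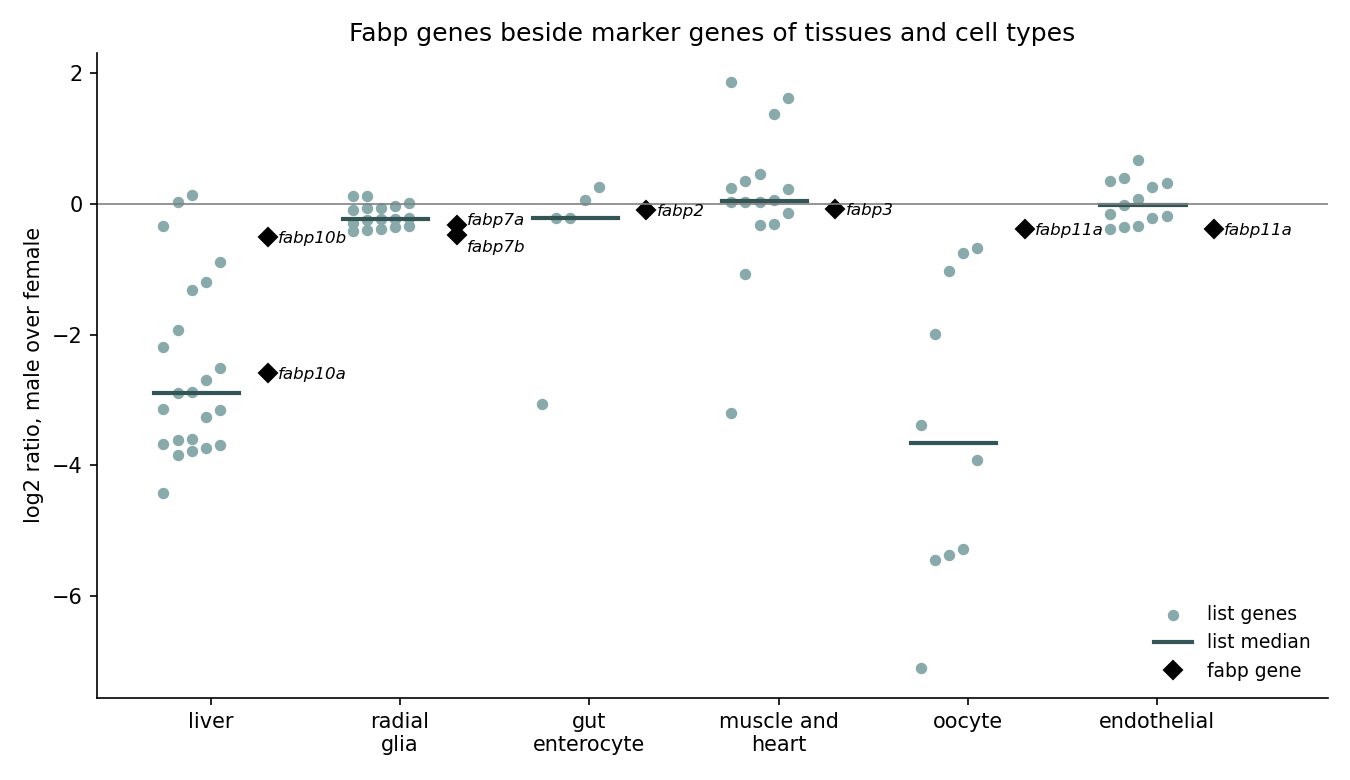
Log2 ratios of male over female of measured marker genes (points) with the list median (bar), beside the fabp gene set against each list (diamonds). The liver list has its median at -2.89 with fabp10a at -2.59 beside it and fabp10b at -0.50 above it, while the radial glia list has its median at -0.23 with fabp7a at -0.32.

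The gene fabp1a encodes the liver form known from mammals, in zebrafish expressed in the intestine, and lies on chromosome 5 from 75222529 to 75225922 on the plus strand. It had 12 reads in males and 3 in females, or 0.196 and 0.0460 CPM, which is under the minimum level. The female count is at the 3 reads that a count of 0 allows, so the size of the ratio is uncertain. It was 1.93 (interval 0.20 to 4.55). Without a minimum level fabp1a would be called higher in the male library, where 1.90% of the genes with reads were so called, against 3.91% on the female side. Its span in the table overlaps that of the muscle methyltransferase gene smyd1a on the minus strand, with 277 against 217 reads and a ratio of 0.44 (interval 0.18 to 0.70). No other member overlaps a gene of the table. No source used here tells whether counting used strand, so reads of these overlapping genes cannot be told apart. The duplicate fabp1b.1, on chromosome 8 from 1383673 to 1386512, had 1 read in males and 0 in females. Both values are at or under the 3 reads that a count of 0 allows (0.0489 CPM in males and 0.0460 CPM in females), so no fold is given.

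The intestinal forms differed little or were barely read. The gene fabp2, whose protein serves the uptake of dietary fat in enterocytes, is on chromosome 1 from 24706036 to 24708930 on the plus strand. It had 911 reads in males and 1033 in females, or 14.8 and 15.8 CPM. Its ratio of -0.09 had an interval from -0.22 to 0.04, so no difference was detectable at this depth, and a difference beyond 1.17-fold toward the female side lies outside the interval. Of the other enterocyte markers 5 of 22 in the table were measured, 18 of 22 had reads in both libraries and 4 were listed at 0 in both, including cubn and lct. Their summed level was 30.6 CPM in males and 34.1 CPM in females. The list's reads were mostly those of ada, adenosine deaminase (1137 against 1401 reads, -0.21), followed by the peptide transporter gene slc15a1b (209 against 213 reads, 0.06). The 1 called enterocyte gene was apoa4b.1, an apolipoprotein gene, at 15 against 137 reads (-3.06, interval -3.98 to -2.33). For every 1000 reads of the list fabp2 had 485 reads in the male (interval 447 to 525) and 464 in the female library (interval 431 to 500), with overlapping intervals.

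The ileal form fabp6, a bile acid carrier of the distal intestine, is on chromosome 21 from 28787115 to 28791413. It had 10 reads in males and 8 in females, or 0.163 and 0.123 CPM, and its ratio of 0.39 had an interval from -1.08 to 1.95. At this depth neither a difference nor its absence can be shown. Of the bile acid genes, 3 of 13 in the table were measured and 7 were listed at 0 in both libraries, among them abcb11b, the bile salt export pump gene, and, on chromosome 7, fgf19. The rate-limiting enzyme of bile acid synthesis, cyp7a1, had 39 against 110 reads and was called on the female side (-1.40, interval -1.97 to -0.87). Only its female level was above 1 CPM (0.636 against 1.69 CPM). The ileal bile acid uptake gene slc10a2, under the minimum level, was level at 38 against 36 reads (0.17, interval -0.53 to 0.87). The measured genes with the most reads were slc10a4, an orphan relative of the bile acid carriers (-0.34), and slc51a, a subunit of the bile acid exporter (-0.64).

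The adipocyte-type forms are named fabp11a and fabp11b in the table and fabp4a and fabp4b in the current RefSeq gene table, after the fatty acid binding protein of mammalian fat cells and macrophages. The gene fabp11a, on chromosome 19 from 33411585 to 33414041 on the plus strand, had 373 reads in males and 516 in females, or 6.08 and 7.91 CPM. Its ratio was -0.38 (interval -0.58 to -0.18). The gene fabp11b, on chromosome 16 from 18199552 to 18202982 on the minus strand, had 31 and 43 reads, or 0.505 and 0.659 CPM, and an interval from -1.10 to 0.32 around a ratio of -0.38. The ratios of the copies were close, but fabp11b was under the minimum level and its wide interval makes this a weak comparison. The share of fabp11a in their reads was 92.3% in both libraries (intervals 89.3% to 94.7% and 89.8% to 94.4%). Of 11 fat cell markers in the table plin2, a lipid droplet coat gene of many cell types, was the 1 measured (2376 against 2535 reads, -0.00). Another 5, among them plin1 and adipoqa, were listed at 0 in both libraries, beside the 37.9% of all genes, so the list says little about fat cells. The ratio of fabp11a lay above those of all 10 measured oocyte markers and below those of all 13 measured endothelial markers, though 3 of these were lower with the expression trend removed. The oocyte marker dazl, under the minimum level, had a higher ratio (0.24). The interval of fabp11a also held the ratios of endothelial markers such as kdr (-0.38), so its place below that list is within counting error. Of the endothelial markers none was called and the median was -0.02. The barrier genes slc2a1a, a glucose transporter, and cldn5a, a tight junction protein, had the most reads there and stood at -0.21 and -0.35. Meningeal and mural markers were also without a call among 12 measured (median -0.34), with notch3 at -0.38 and dcn, the decorin gene, at -0.51. Microglia and leukocyte markers had a median of -0.57 over 12 measured, with summed levels of 511 CPM in males and 667 CPM in females. The complement gene c1qc was the 1 called there (-1.06, interval -1.32 to -0.81), and cd74a and apoeb, with the most reads, stood at -0.36 and -0.24. Their part in the fabp11a ratio was not tested.

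**Figure D4:**
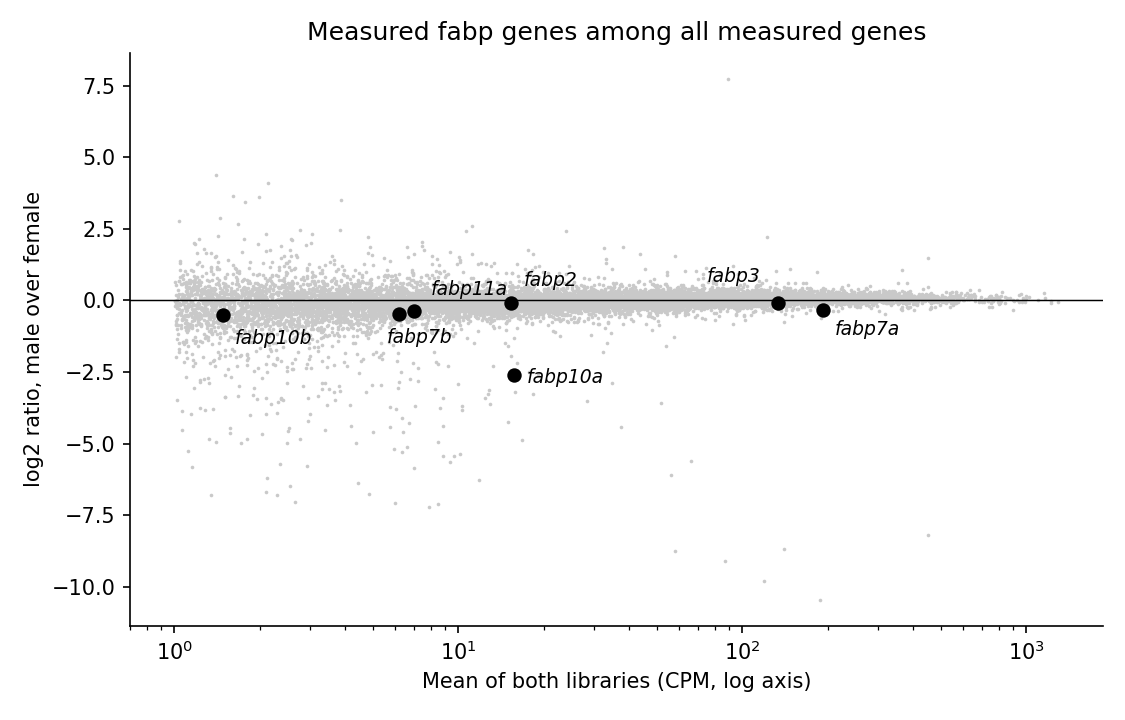
Log2 ratio of male over female against the mean of both libraries in CPM (log axis) for all 14756 measured genes (grey), with the 7 measured fabp genes in black. Only fabp10a among these 7 lies outside the dense band around 0, and fabp7a and fabp3 lie toward the deeply read end.

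The cellular retinoid-binding genes share the barrel fold with the fatty acid binding proteins but carry vitamin A compounds. With pmp2, the myelin fatty acid binding protein gene, they made a list of 10 relatives. Of these rbp7a and pmp2 were not matched to the table and 8 were, all retinoid carriers, of which 7 were measured. Among these 1 was called higher in the female library and none in the male library. The retinoic acid carrier gene crabp1a, with the most reads, had 6221 against 5851 reads (0.18, interval 0.13 to 0.23). Its relatives crabp2b and crabp2a stood at -0.01 and -0.08, and crabp1b, on chromosome 7, was listed at 0 in both libraries. The retinol carrier gene rbp5 had 1207 against 1158 reads (0.15, interval 0.03 to 0.27), rbp2a was at -0.21 and rbp7b was at 0.61 (interval 0.22 to 1.01). The gene called was rbp2b, with 27 against 123 reads (-2.08, interval -2.76 to -1.49), on the minus strand of chromosome 2 from 38720767 to 38722028. At 0.440 CPM in males and 1.89 CPM in females, it counted as measured only through the female library. In mammals rbp2 is a retinol carrier of the small intestine.

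Calls were rare among genes that supply and use fatty acids, as they were among all measured genes (2.70% higher in females and 1.06% in males). The lack of a call does not make a gene level. None of 23 measured genes of uptake and activation was called, with a median of 0.03 and ratios from -0.69 to 0.37. The acyl-CoA synthetase genes acsl3b and acsl6, with the most reads, were at 0.15 and 0.23. Of 15 measured genes of synthesis and desaturation, elovl7b, an elongase gene, was called higher in the female library at 28 against 106 reads (-1.81, interval -2.49 to -1.22). It was above 1 CPM in the female library only (0.456 against 1.62 CPM). The desaturase gene scdb stood at 0.00 and the lipid synthesis regulator gene srebf1 at 0.28, and the list's median was -0.06. None of 16 measured genes of fatty acid oxidation was called, and the median was -0.12 with ratios from -0.44 to 0.80. A ratio below 0 was found for 13 of the 16, against 50.3% of all measured genes. The leading genes acadm, the medium-chain dehydrogenase gene, and hadhab, a trifunctional protein gene, were at -0.06 and -0.10. None of 7 measured PPAR and RXR receptor genes was called, and their median was 0.03. Another 5 of the 13 listed were at 0 in both libraries, among them pparg and the coactivator genes ppargc1b and, on chromosome 7, ppargc1a. The receptors are nuclear proteins to which fatty acid binding proteins can deliver ligands. The retinoid X receptor gene rxrba was at -0.06 and pparaa at 0.16.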

How the data were processed

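Total RNA of 1 pool of 5 brains per sex was sequenced as single reads of 51 bp, per the labels' protocols. The submitters' processing notes name TopHat 1.4.1, DESeq and build Zv9 without their roles. The deposited table has 27423 rows. It has 2 columns of raw counts per the file headers, treated here as estimated counts: within 0.001, whole numbers made up 1.56% of nonzero male values and 1.92% of nonzero female values. The other 2 deposited columns are normalized counts per the file headers and hold log2 values, used only as an alternative. 

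Rows that share an Entrez ID were added up (296 genes had more than 1 row, none of them a member), giving 27095 genes, and counts were rounded. Median-of-ratios size factors were 0.970 (male) and 1.03 (female). The log2 ratio was taken after adding 0.5 to each count. Amplified reads carry no molecular identifiers, so intervals and the 3-read limit for a count of 0 cover counting error only. The calculation was tested on simulated Poisson counts without spread between pools, so that test does not bear on false calls with 1 pool per sex. No transcript lengths or sequences were used here, so the planned levels per coding length were not computed.

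The members and the 18 gene lists were chosen with earlier results of these data known. All members and all listed relatives are named, apart from an item that is not reported here. From other lists the rule was up to 4 called genes by the interval end nearest 0 and the 2 with most reads. The yolk and retina lists are given by counts and medians only. The markers gfap, slc10a2, dazl and mep1b, the genes next to members and those named as listed at 0 were chosen after their values were seen. Lists were matched by current RefSeq symbol (assembly GRCz12tu), table symbol or unique synonym; all 11 members matched by Entrez ID. Alternatives were library totals or edgeR's TMM factors as the scale, the deposited log2 values, other minimum levels, 1.5-fold, an added count of 2, separate rows, and removal of a lowess trend (fraction 0.3). Software was edgeR 4.0.16 in R 4.3.3 and, in Python 3.11.15, scipy 1.17.1, statsmodels 0.14.6, pandas 2.3.3, matplotlib 3.10.9 and numpy 2.4.6.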

Additional observations from a re-analysis of the deposited data

How the results depend on the processing

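The call of fabp10a held under all 9 alternatives: library totals or edgeR's TMM factors as the scale, the deposited log2 values, no minimum level, 5 CPM, 1.5-fold, an added count of 2, separate rows and removal of the expression trend. No minimum level and 1.5-fold only loosen the rule, and separate rows left the counts of fabp10a as they were, so these could not remove the call. For the deposited log2 values no interval was applied. Without a minimum level 1 member, fabp1a with 12 against 3 reads, was also called higher in the male library. Over all genes the calls on the female side were 656 without a minimum level, 112 at 5 CPM and 899 at 1.5-fold, and on the male side 319, 59 and 413; lower or higher lines admit more or fewer genes by construction. Of 66 recomputed ratios of members, none changed sign and 63 stayed inside their main interval. The other 3 were fabp7a with library totals and with the trend removed and fabp3 with the trend removed (-0.14). Both genes had the narrowest intervals of the members. Separate rows left the counts of all members as they were, and wide intervals are hard to leave, so the 63 are a weak check. Library totals lowered the median ratio over all measured genes from -0.00 to -0.04. Depth limits fabp11b, fabp6, fabp1a and fabp1b.1, whose intervals are the widest of the members. No paired analysis was possible because each sex has 1 library.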

Other observations

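Both copies of the fabp10 gene lie beside a copy of the same splicing factor gene in the table's coordinates. The gene fabp10a has LOC564283, now srsf10a, 3635 bases above it, and fabp10b has zgc:65772, now srsf10b, 1075 bases above it. The splicing factor copies were near level, srsf10a at 11072 against 10418 reads (log2 ratio 0.18) and srsf10b at 1321 against 1459 reads (-0.05, interval -0.16 to 0.05), beside -2.59 for fabp10a and -0.50 for fabp10b.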
